A study of Mus musculus with 8 samples.

Results

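Long intergenic noncoding RNAs (lincRNAs) of the autosomes were examined in liver RNA-seq of Lbr mutant and control mice. Members were chosen by annotation and by measured level: a row of the count table was taken when its gene has the biotype lincRNA in the GENCODE annotation of GRCm38, lies on chromosomes 1 to 19 and had at least 1 CPM (counts per 1000000 counts of its library) in at least 2 of the 8 libraries. This rule kept 173 of 3506 autosomal lincRNA rows, in a table of 49671 genes. Of the other rows, 1934 had no count in any library and 1399 had counts but stayed under the rule. The 173 members were 4.93% of the autosomal lincRNA rows and held 96.0% of their counts. As the rule used the levels themselves, the level of the members is a description and not a finding. The members just inside the rule were Gm44751, Gm19710 and Gm43254, whose second-highest library stood at 1.01, 1.01 and 1.00 CPM. The rows just outside were C130083M11Rik, Gm27028 and Gm41231, at 0.997, 0.994 and 0.992 CPM.

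The study asked what loss of the N-terminus of Lbr, the lamin B receptor, does in mice of both sexes. Livers were taken after weaning from mice labelled C57BL/6, and the 4 groups of 2 libraries each were WT males, NT-KO males, WT females and NT-KO females. NT-KO mice are homozygous for a short deletion around the first start codon of Lbr, carried in every cell and made by CRISPR/Cas9 in 1 founder male that was then crossed to C57BL/6N, so all NT-KO mice carry the same allele. The labels do not say whether the libraries of a group came from separate litters, and p-values below measure only the spread between these libraries.

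LincRNAs are transcribed from their own promoters between coding genes, are capped, spliced and polyadenylated like mRNAs, and usually stay at low levels, often in the nucleus. Some build nuclear bodies, some host small RNAs in their introns, some act on genes next to them and a few turned out to encode small proteins. In rodent liver many genes differ between males and females because the pituitary releases growth hormone in pulses in males and more evenly in females, which hepatocytes read through the transcription factor STAT5. The lamin B receptor sits in the inner nuclear membrane, where its N-terminus binds lamin and heterochromatin and its other end is a sterol reductase.

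The libraries held between 45020377 and 64396291 counts, so 1 count was worth 0.0155 to 0.0222 CPM. Lbr stood at 6.54 to 7.99 CPM in the 4 WT libraries and at 12.8 CPM or more in the 4 NT-KO libraries. Counts over the whole gene do not show the deletion itself. Xist, which is transcribed from the inactive X chromosome, lay between 788 and 967 CPM in female libraries and between 0.723 and 3.21 CPM in male libraries, and 4 genes of the Y chromosome (Kdm5d, Uty, Ddx3y and Eif2s3y) followed the labelled sex in every library. All 8 hepatocyte markers were present, with a sum of 80956 to 115223 CPM. The ER chaperones (12 genes) were highest in WT males, at 3547 and 8340 CPM, against 2196 to 2865 CPM in the other libraries. Male WT replicate 2 stood apart most. In bulk liver, fewer cells of a type and less RNA per cell cannot be told apart.

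The sequences shown next belong to the lincRNAs with the largest differences between the sexes, described below. For the female-high Gm6135 and the male-high Gm31121 and Gm12718 the junction of the first exons is shown, since it exists only in the spliced RNA and not as an unbroken stretch of the genome. Lower case letters are the end of exon 1 and capitals the beginning of exon 2, written 5′ to 3′ on the RNA strand, from the GENCODE M21 transcripts. Gm6135 has exons 1 and 2 within chr3:133790810-133791504, Gm31121 within chr3:149627225-149660396 and Gm12718 within chr4:103382500-103404722 (GRCm38, minus, minus and plus strand).
Gm6135: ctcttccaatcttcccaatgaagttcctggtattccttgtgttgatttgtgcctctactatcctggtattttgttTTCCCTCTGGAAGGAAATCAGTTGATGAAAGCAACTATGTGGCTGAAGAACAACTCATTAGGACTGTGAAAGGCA
Gm31121: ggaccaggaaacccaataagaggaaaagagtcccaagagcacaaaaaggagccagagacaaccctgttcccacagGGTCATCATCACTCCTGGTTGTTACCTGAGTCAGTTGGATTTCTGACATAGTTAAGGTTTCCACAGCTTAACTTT
Gm12718: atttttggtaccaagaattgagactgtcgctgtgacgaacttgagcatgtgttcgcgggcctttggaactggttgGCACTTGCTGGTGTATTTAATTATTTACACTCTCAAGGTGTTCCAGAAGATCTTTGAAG

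Because sex differences of the liver are read through STAT5, the promoters of the members were searched for its palindromic motif TTCNNNGAA, which reads the same on both strands. RefSeq (GRCm38.p6) gave a window of 300 bases, 250 before and 50 after the start of the gene, for 91 of the 173 members. The motif was in 6 of these 91 windows (6.59%) and in 8.3% of all 32851 windows of the genome. In 75 of the 91 the RefSeq start lay within 1000 bp of the GENCODE start, and 6 of these (8%) held the motif. No window was available for 82 members. Among them were Gm6135, Gm31121, Gm12718, Gm44787, Gm43672 and Gm30931, which differed between the sexes as described below. The members with a match were C330002G04Rik, 1810058I24Rik, Gm15408, Gm5113, B930025P03Rik and Dubr. The first pair of these passed the test between the sexes in a comparison below, and their windows are printed with the match in capitals. They lie at chr19:23075857-23076156 on the minus strand and chr6:35252460-35252759 on the plus strand, and the first base of the match is 152 bases before the start in C330002G04Rik and 90 bases before it in 1810058I24Rik. A match in letters is a description and does not show that a factor was bound.
C330002G04Rik: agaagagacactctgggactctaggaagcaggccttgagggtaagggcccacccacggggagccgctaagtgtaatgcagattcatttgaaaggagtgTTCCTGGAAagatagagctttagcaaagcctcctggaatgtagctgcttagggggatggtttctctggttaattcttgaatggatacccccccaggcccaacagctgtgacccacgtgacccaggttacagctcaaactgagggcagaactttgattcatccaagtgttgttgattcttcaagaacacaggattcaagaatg
1810058I24Rik: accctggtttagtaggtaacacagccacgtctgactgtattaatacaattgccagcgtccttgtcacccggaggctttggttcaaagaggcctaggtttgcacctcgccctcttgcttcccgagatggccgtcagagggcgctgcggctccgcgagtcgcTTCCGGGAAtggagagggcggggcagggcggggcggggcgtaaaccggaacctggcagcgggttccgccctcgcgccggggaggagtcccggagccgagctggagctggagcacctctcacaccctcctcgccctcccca
The windows also differ in CG dinucleotides, with 3 in C330002G04Rik and 25 in 1810058I24Rik, against a median of 7 over all windows.

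The members are long transcripts with few exons and short reading frames. Their longest annotated transcript had a median of 1997 bases and 3 exons, and 26 members (15.0%) had a single exon. The lincRNA rows under the rule had a median of 934 bases, and 6.63% of them had a single exon. The rule used CPM without correction for length, so that a greater length in the members was favoured by their selection. The tested autosomal coding genes had a median of 3394 bases and 9 exons. The median GC content was 46.6% in the members, 46.7% in the lincRNA rows under the rule and 49.7% in coding genes. The longest open reading frame from a start codon had a median of 74 codons in the members and 412 codons in coding genes, and 31 members (17.9%) held a frame of at least 100 codons. The longest were in Gm37494 (918 codons), Gm20939 (720 codons) and Gm43549 (536 codons), 3 members that the annotation nevertheless lists as lincRNAs. The longest frame was 78 codons in AW112010, 72 codons in 1810058I24Rik and 43 codons in Gm6135. AW112010 and 1810058I24Rik are both known to encode a small protein in spite of their noncoding label. Whether their longest frame is the one that encodes it was not tested.

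Intergenic did not mean far from other genes. For 97 of the 173 members the nearest coding gene began or ended less than 5 kb away, 38 of them overlapped the body of a coding gene, and 27 started within 1 kb of a coding gene that runs the other way. The exons of 67 members overlapped those of another annotated gene on either strand. The library kit does not mark strand, and for these members reads of the overlapping genes cannot be told apart. There were 12 members with a snoRNA, scaRNA or miRNA on the same strand inside the gene body. Among them were the snoRNA hosts Snhg6, Snhg12, Snhg18 and Snhg20, Mir17hg, which carries the miR-17-92 cluster, and Meg3.

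Few of the lincRNAs were abundant. The mean over the 8 libraries had a median of 2.16 CPM over the members, with quartiles of 1.22 and 5.67 CPM. CPM values from here on are scaled by TMM, edgeR's correction for differences in composition between libraries. Only 28 members reached a mean of 10 CPM and 3 a mean of 100 CPM. The count of members at 1 CPM or more in a library ran from 118 in male WT replicate 1 to 155 in female WT replicate 1. In all 8 libraries, 100 members were at 1 CPM or more, 47 were in 4 to 7 libraries and 26 in 2 or 3. There were 10 members under 1 CPM in every male library and 6 under it in every female library (Gm12718, Platr4, C330002G04Rik, Gm31121, Gm30931 and Gm31717). These passed the rule through 1 sex alone. Together the members took 0.257% to 0.355% of the counts of a library.

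The nuclear body RNAs Malat1 and Neat1 made up between 52.5% and 67.7% of all member counts. Malat1, a nuclear RNA found in speckles where splicing factors gather, stood at 1338 and 1633 CPM in WT males, 908 and 1447 in NT-KO males, 1699.6 and 1363 in WT females and 1345 and 1244 in NT-KO females. Neat1, the scaffold of paraspeckles, stood at 489 and 436 CPM, 484 and 299, 346 and 447 and 531 and 248 in the same order. For Neat1 the libraries of all groups overlapped. For Malat1 both NT-KO female libraries lay below both WT female libraries, and the other pairs of groups overlapped. The lowest Malat1 value was in male NT-KO replicate 1 and the lowest Neat1 value in female NT-KO replicate 2. Malat1 also led per length, at 197 CPM per kb of exon, followed by AW112010 (129), Gm10076 (53.2), Gm6135 (42.8) and 1810058I24Rik (34.9). Gm10076 is a single-exon gene of 384 bases, and its 8 libraries lay between 17.4 and 22.5 CPM.

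Next by mean CPM, without correction for length, came AW112010, 1810058I24Rik, Gm26917 and 1700020I14Rik. Gm26917 is a locus with similarity to ribosomal RNA and its reads may in part be rRNA. It stood at 124 and 105 CPM in WT males, 139.7 and 76.6 in NT-KO males, 99.4 and 68.7 in WT females and 92.8 and 69.9 in NT-KO females. In each group replicate 2 was the lower. Both WT male libraries were above both WT female libraries, while the sexes overlapped in NT-KO. NT-KO and WT overlapped within each sex. The mouse Cyrano RNA 1700020I14Rik, a conserved RNA that leads to the decay of a microRNA, was even between 60.7 and 80.6 CPM. Tmem250-ps (38.1 to 53.8 CPM), Gm37494 (31.7 to 45.7), Gm20300 (19.4 to 24.1), 4732465J04Rik (17.3 to 27.7) and 2310001H17Rik (18.2 to 33.2) completed the 12 members with the highest mean, together with 1810008I18Rik. The last of these had 1 library far from the others, male NT-KO replicate 2 at 128 CPM, against 29.8 to 76.5 CPM in the other 7.

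Lists of RNAs with known roles left few members to follow. Of 11 imprinted RNAs only Meg3, the maternally expressed RNA of the Dlk1-Dio3 cluster, was a member. It stood at 5.61 and 2.71 CPM in WT males, 6.82 and 0.724 in NT-KO males, 7.54 and 2.34 in WT females and 9.78 and 1.97 in NT-KO females. Replicate 1 was the higher in every group, and all groups overlapped. Of 19 RNAs named for growth or stress, 6 were members. The mean over the 8 libraries was 1.79 CPM for Pvt1, the neighbour of Myc, and 0.994 CPM for the p53-responsive Lncpint. It was 2.16 CPM for Norad (2900097C17Rik), which binds Pumilio proteins, 8.38 CPM for the snoRNA host Epb41l4aos and 4.00 CPM for Mir17hg. Of 6 RNAs of immune cells, AW112010 and Pvt1 were members, and of 3 ribosomal RNA loci, Gm26917. None of 7 RNAs named for liver metabolism was an autosomal lincRNA past the rule. Of all members on these lists, AW112010 alone passed a test, between the sexes in WT.

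Between females and males, 11 of the 173 lincRNAs (6.36%) passed the test over both genotypes, against 4.19% of all 13117 genes tested. A gene passed with an FDR of at most 0.05 in edgeR's quasi-likelihood test and an absolute log2 fold change over 1. Of the 11, 6 were higher in females (2.24% of all genes passed in this direction) and 5 were higher in males (1.95%). The 4 lincRNAs C330002G04Rik, Gm31121, Gm12718 and Gm30931 had entered the set through male libraries alone, so that a difference was built into their selection. The count of 11 fell to 6 without female NT-KO replicate 1 and to 7 without male WT replicate 1, female WT replicate 1, female WT replicate 2 or female NT-KO replicate 2. The calls over all genes fell as well in these fits, from 550 to between 365 and 491. Over all members the median log2 fold change, female over male, was 0.15, with 114 higher and 59 lower in females, and over all genes it was -0.01. Without male NT-KO replicate 1 it was 0.24. With library sizes alone in place of TMM it was 0.27, and that of all genes moved to 0.12.

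Gm6135 had the clearest difference between the sexes. This spliced RNA of 3 exons and 372 bases lies at chr3:133789515-133791504 on the minus strand, 244376 bp from its nearest coding gene, the DNA demethylase gene Tet2. It stood at 0.706 and 0.519 CPM in WT males and 0.753 and 1.37 in NT-KO males. In females it stood at 30.6 and 31.2 CPM in WT and 33.2 and 29.1 in NT-KO. Every female library was far above every male library, and the 4 female libraries were close together. The log2 fold change was 5.25 ± 0.21 (SE, FDR 9.89e-06), and the ratio of counts was 36.3 (95% counting interval 31.2 to 42.5, which covers counting error only). Within WT the log2 fold change was 5.64 ± 0.31 (SE, FDR 0.000113), and within NT-KO it was 4.87 ± 0.29 (SE, FDR 0.000193). It remained past the thresholds in all 13 alternatives tried, with each library left out among them.

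The other 5 female-high lincRNAs differed by smaller factors. Gm27216, with 5 exons on chromosome 9, stood at 8.52 and 10.2 CPM in WT males, 11.9 and 14.4 in NT-KO males, 18.3 and 22.4 in WT females and 27.5 and 21.6 in NT-KO females. The female and male libraries did not overlap, and the log2 fold change was 1.01 ± 0.14 (SE, FDR 0.00458). It fell below a fold change of 2 in 4 of the fits with 1 library left out, while its FDR stayed at or under 0.0219.

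Gm44787, on chromosome 11 and 3915 bp from the ubiquitin ligase subunit gene Wsb1, stood at 0.935 and 0.543 CPM in WT males and 0.814 and 1.03 in NT-KO males. In females it stood at 5.98 and 2.53 CPM in WT and 3.49 and 2.19 in NT-KO. All female libraries were above all male libraries, although the female replicates differed by more than the male ones, and the log2 fold change was 2.06 ± 0.34 (SE, FDR 0.0104). Wsb1 itself ran from 14.3 to 61.2 CPM, with replicate 1 the higher in every group, and did not pass (log2 fold change 0.40 ± 0.39 SE, FDR 0.554). Gm36435, on chromosome 9 near the sterol desaturase gene Sc5d, stood at 0.741 and 0.920 CPM in WT males, 0.692 and 1.39 in NT-KO males, 1.88 and 2.34 in WT females and 2.35 and 2.23 in NT-KO females. The sexes did not overlap, and the log2 fold change was 1.24 ± 0.26 (SE, FDR 0.0259). The call ended in 6 of the 8 fits with 1 library left out, with an FDR of up to 0.0931.

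Gm43672, a single-exon RNA on chromosome 3 that starts 510 bp from the corepressor gene Tbl1xr1 on the other strand, stood at 1.41 and 1.13 CPM in WT males and 2.79 and 2.25 in NT-KO males. It stood at 5.07 and 2.79 CPM in WT females and 3.99 and 2.87 in NT-KO females. Male NT-KO lay between WT males and the females, with its higher library just below the lowest female one, and the log2 fold change was 1.03 ± 0.24 (SE, FDR 0.0394). Its call ended in 7 of the 8 fits with 1 library left out, with an FDR of up to 0.128. The neighbour did not follow it, with a log2 fold change of -0.17 ± 0.13 for Tbl1xr1 (FDR 0.439). 1700047M11Rik, on chromosome 1 near the ceramide enzyme gene Degs1, stood at 0.882 and 1.11 CPM in WT males, 1.32 and 0.896 in NT-KO males, 2.69 and 2.12 in WT females and 2.23 and 1.51 in NT-KO females. The female libraries were all above the male ones, by little in female NT-KO replicate 2, and the log2 fold change was 1.01 ± 0.24 (SE, FDR 0.0396). The call of 1700047M11Rik, too, ended in 7 of these 8 fits, with an FDR of up to 0.132.

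**Figure D1:**
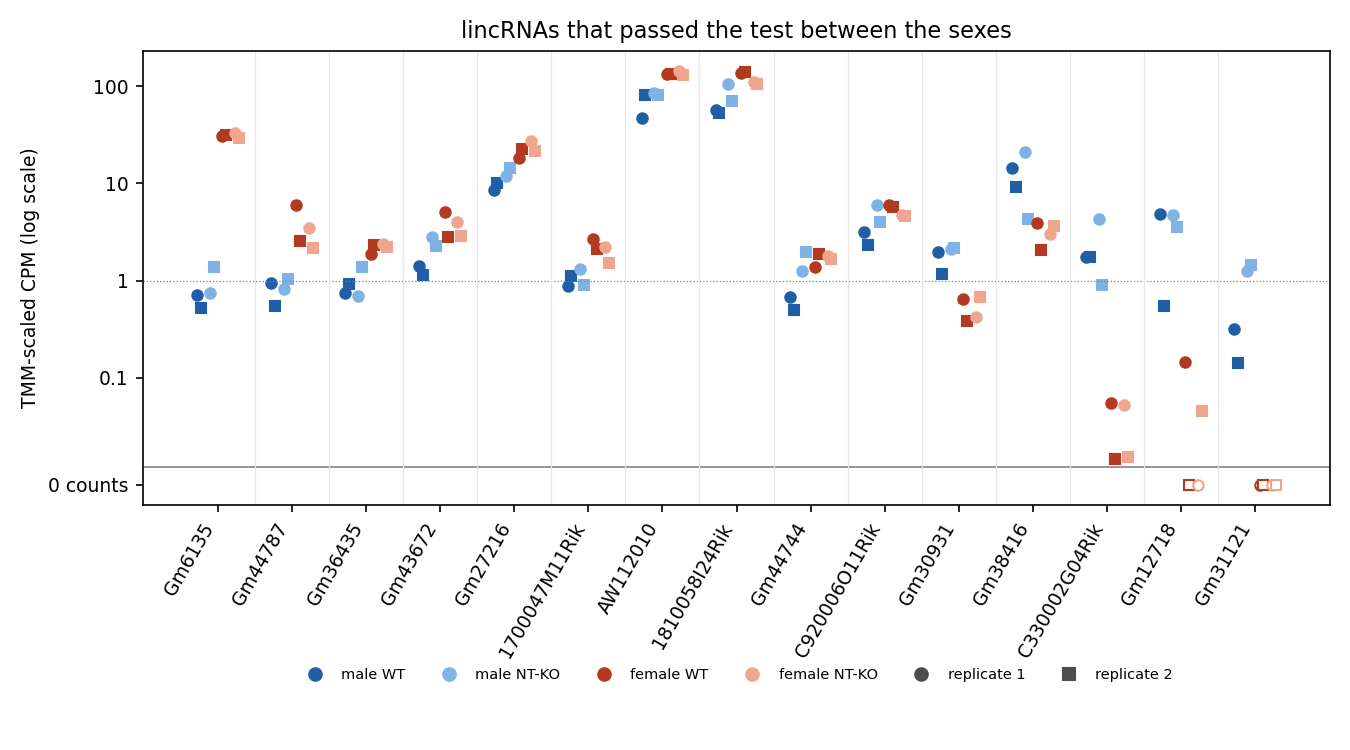
TMM-scaled CPM (log axis) of the 15 lincRNAs that passed the test between the sexes over both genotypes or in WT, 1 point for each of the 8 libraries by group. The female libraries of Gm6135 sit between 29.1 and 33.2 CPM and the male ones between 0.519 and 1.37 CPM, and Gm31121 had no count in any female library.

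Of the 5 male-high lincRNAs, 3 were near absent in females. C330002G04Rik, of up to 7 exons at chr19:22978230-23075924 on the minus strand, overlaps the cation channel gene Trpm3. It stood at 1.76 and 1.75 CPM in WT males, 4.27 and 0.896 in NT-KO males, 0.0549 and 0.0147 in WT females and 0.0527 and 0.0153 in NT-KO females. Trpm3 had at most 0.0353 CPM in any library. All male libraries were above all female libraries, and the male NT-KO replicates stood further apart than those of WT males. The males had 431 counts in all and the females 8, a ratio of 65.8 (95% counting interval 33.1 to 153) after scaling for library size, with an FDR of 0.00175.

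Gm31121, a 6-exon RNA at chr3:149562882-149660396, stood at 0.318 and 0.142 CPM in WT males and 1.26 and 1.45 in NT-KO males. It had no count in any of the 4 female libraries, in which 3 counts, taken as the floor for the group, set the limit. The males had 162 counts, at least 66.0-fold higher than the females (FDR 0.00294). The bound was at least 9.91-fold in WT and at least 55.4-fold in NT-KO. Both male NT-KO libraries were above both male WT libraries, a difference taken up below.

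Gm12718, at chr4:103382500-103492040 on the plus strand, holds the small RNA gene Gm23064 within its body and lies near the mitochondrial protease gene Oma1. It stood at 4.85 and 0.543 CPM in WT males, 4.72 and 3.56 in NT-KO males, 0.146 and 0 in WT females and 0 and 0.0459 in NT-KO females. The male WT replicate 2 was far below the other male libraries, yet still above every female one. The ratio of counts was 79.6 (95% counting interval 44.2 to 160.2, 717 counts against 11) and the FDR 0.00749.

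Gm30931 and Gm38416, both on chromosome 8, were present in both sexes. Gm30931 stood at 1.96 and 1.18 CPM in WT males, 2.12 and 2.17 in NT-KO males, 0.640 and 0.382 in WT females and 0.421 and 0.673 in NT-KO females. The sexes did not overlap, and the log2 fold change was -1.80 ± 0.29 (SE, FDR 0.00906). Gm38416, of up to 8 exons, stood at 14.5 and 9.09 CPM in WT males, 21.0 and 4.29 in NT-KO males, 3.93 and 2.06 in WT females and 2.99 and 3.69 in NT-KO females. Male NT-KO replicate 2 was only just above the highest female library, and the log2 fold change was -1.95 ± 0.47 (SE, FDR 0.0419). The call of Gm38416 ended in 6 of the 8 fits with 1 library left out, with an FDR of up to 0.146.

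The nearest coding genes of the 11 lincRNAs were looked up by the distance between gene bodies. Of these 11 genes, 9 were tested and none passed. The largest log2 fold change was that of Hmgn3, a chromatin protein gene 93796 bp from Gm27216, at 0.98 ± 0.27 (FDR 0.0613). Oma1 had -0.08 ± 0.15 (FDR 0.781) and Degs1 0.02 ± 0.11 (FDR 0.930). Trpm3 and Helt, the latter with no count in any library, were not tested. Over the 132 members with a tested nearest gene (121 different genes), member and neighbour had the same sign in 78 pairs.

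Over both genotypes, the share of lincRNAs with all libraries of one sex above those of the other was near the background for females and below it for males. Females lay above males in 16 members (9.25%, against 8.5% of all genes) and males above females in 7 (4.05%, against 7.6%). Of the 7, C330002G04Rik, Gm12718, Gm30931, Gm31121 and Platr4 had passed the level rule through male libraries alone. Gm44751, of the 16, had passed it through female libraries alone. For these a difference was built into their selection, and the shares below hold such members too. Within WT the shares were less even, with 88 members higher in both females (50.9%, against 31.4%) and 23 lower (13.3%, against 30.6%). Within NT-KO they were 32 (18.5%, against 17.4%) and 24 (13.9%, against 16.9%).

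Within WT alone, 11 lincRNAs passed between the sexes (6.36%, against 4.68% of all genes), 8 higher in females (2.55% of all genes passed in this direction) and 3 higher in males (2.13%). The 3 higher in males, C330002G04Rik, Gm12718 and Gm31121, had passed the level rule through male libraries alone, so that nothing is read from their count. The median log2 fold change over the members was 0.32, with 125 higher and 48 lower in females, against 0.00 over all genes. It was 0.29 over antisense RNA genes, 0.36 over processed transcripts and 0.27 over coding genes with a mean under 5 CPM. With library sizes alone the median of the members was 0.50, and that of all genes moved to 0.18. The 614 calls over all genes rose when a male NT-KO library was left out. The count of 11 fell when any WT or any female NT-KO library was left out, and so did the calls over all genes. It was 1 without female WT replicate 1, 2 without replicate 1 of the WT males, and 3 without replicate 2 of either the WT males or the WT females, and it was 5 and 6 without female NT-KO replicate 1 and 2. In the same order the calls over all genes were 214, 388, 289 without replicate 2 of the WT males, 180 without replicate 2 of the WT females, 400 and 403. Of the 11, 7 had also passed over both genotypes. The other 4 were 1810058I24Rik, AW112010, C920006O11Rik and Gm44744, all higher in WT females than in WT males.

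1810058I24Rik, which encodes a small mitochondrial protein, stood at 56.7 and 53.4 CPM in WT males, 105 and 70.3 in NT-KO males, 138 and 138 in WT females and 111 and 105 in NT-KO females. The WT sexes were far apart, while the higher male NT-KO library came close to the female NT-KO libraries. The log2 fold change, female over male, was 1.33 ± 0.21 (SE, FDR 0.0121) in WT and 0.30 ± 0.20 (SE, FDR 0.768) in NT-KO. The difference of these differences was -1.02 ± 0.29 and did not pass (FDR 0.573, over alternatives 0.116 to 0.965). Its call in WT ended when any of the 4 WT libraries was left out, with an FDR of up to 0.0699. Its promoter window, printed above, is the one with 25 CG dinucleotides.

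AW112010, an RNA induced in immune cells by interferon and infection, stood at 46.5 and 81.1 CPM in WT males, 85.8 and 80.4 in NT-KO males, 133 and 132 in WT females and 142 and 130.4 in NT-KO females. All female libraries were above all male ones, and male WT replicate 1 was the lowest of all. The log2 fold change was 1.05 ± 0.25 (SE, FDR 0.0464) in WT and 0.71 ± 0.25 (SE, FDR 0.332) in NT-KO. The 8 Kupffer cell markers summed to 171 and 262 CPM in WT males, 296 and 225 in NT-KO males, 329.9 and 340.5 in WT females and 312 and 373 in NT-KO females, and their part in the AW112010 difference was not tested. Leaving out any single library except male WT replicate 2 ended the call of AW112010, and so did the replicate block.

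C920006O11Rik, on chromosome 9 near the kinase gene Ick, stood at 3.19 and 2.34 CPM in WT males, 5.98 and 4.00 in NT-KO males, 5.96 and 5.71 in WT females and 4.71 and 4.63 in NT-KO females. Gm44744, on chromosome 7 near the proteasome gene Psmc4, stood at 0.671 and 0.496 CPM, 1.24 and 1.96, 1.37 and 1.87 and 1.77 and 1.67 in the same order. In both, the male WT libraries were the lowest pair and the male NT-KO libraries overlapped the females. Their log2 fold changes in WT were 1.07 ± 0.26 (SE, FDR 0.0479), and 1.46 ± 0.35 (SE, FDR 0.0489). Each lost its call in 6 of the 8 fits with 1 library left out, with an FDR of up to 0.193 for C920006O11Rik and 0.225 for Gm44744, and Gm44744 also lost it with the replicate block.

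Within NT-KO, 3 lincRNAs passed between the sexes (1.73%, against 1.78% of all genes). These were Gm6135, higher in females (0.839% of all genes), and C330002G04Rik and Gm31121, higher in males (0.945%), which had both passed the level rule through male libraries alone. Gm6135 alone was left without female NT-KO replicate 1 or replicate 2, and 7 lincRNAs passed without male NT-KO replicate 2. Over all genes the calls in these fits were 112, 128 and 215, against 234. The median over the members was -0.04, with 78 higher and 95 lower in females, but 0.13 without male NT-KO replicate 1 and 0.05 with library sizes alone. The WT and NT-KO comparisons use separate libraries, and 100 members (57.8%) had the same sign in both, against 67.5% of all genes. Of the 11 lincRNAs that passed in WT, 10 had the same sign in NT-KO and 7 had an unadjusted p under 0.05 there. Among the 7 were C330002G04Rik, Gm12718 and Gm31121, which had all passed the level rule through male libraries alone. Their sign was built into their selection, and no share over all genes was taken, so nothing is read from these counts. Over the 173 members the log2 fold changes of both genotypes had a Pearson correlation of 0.45 and a Spearman correlation of 0.36. This describes genes within the same libraries, with low counts among them, and carries no test.

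**Figure D2:**
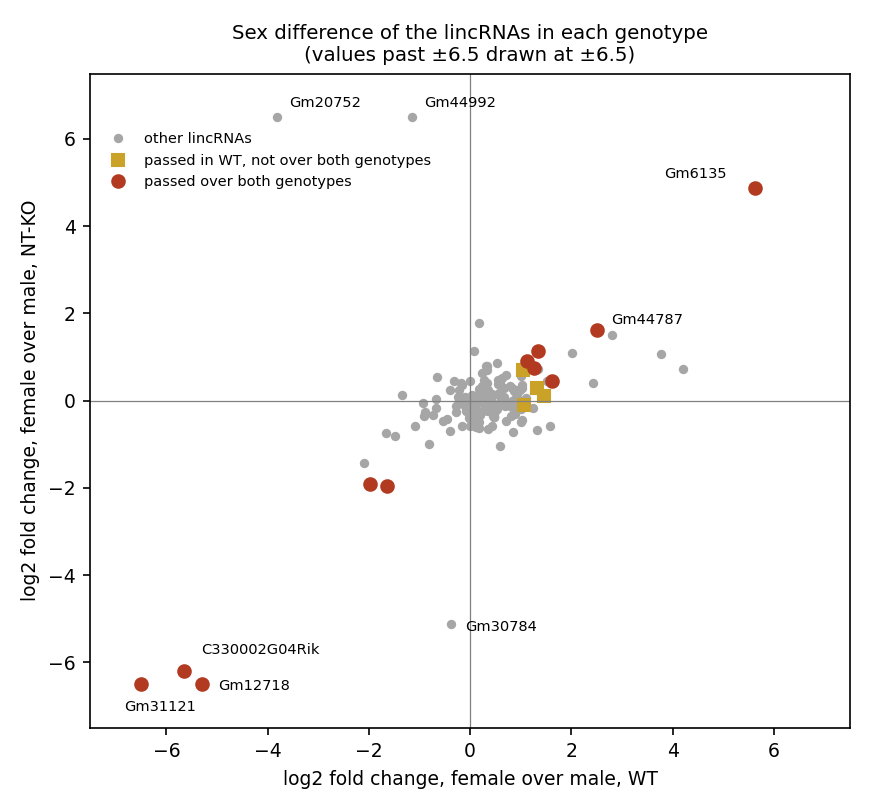
Log2 fold change, female over male, of the 173 lincRNAs in WT (horizontal) and in NT-KO (vertical), 1 point a lincRNA. Red circles passed over both genotypes, 11 in all, yellow squares passed in WT but not over both genotypes, 4 in all, and grey points passed in neither. Most points lie right of the vertical line at 0 (125 of 173), and they spread evenly about the horizontal line. Fitted values near the corners rest on groups with no or few counts and are not sizes of change.

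Between NT-KO and WT no lincRNA passed, in males (0.0152% of all genes passed), in females (0.00762%) or over both sexes (0.0152%), with edgeR's quasi-likelihood test. At an unadjusted p under 0.05 there were 28 lincRNAs in males (16.2%, against 11.5% of all genes), 4 in females (2.31%, against 1.55%) and 8 over both sexes (4.62%, against 5.42%). The likelihood ratio test of edgeR, which the study's methods name, called 5, 1 and 2 lincRNAs (1.56%, 0.0839% and 0.29% of all genes), and DESeq2 called 3, 0 and 0 (1.66%, 0.0381% and 0.297% of all genes). The lincRNAs named next are those with the smallest unadjusted p in each direction and are given as values.

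In males, Gm26584 had the smallest p. It stood at 2.40 and 1.86 CPM in WT males, 7.49 and 7.45 in NT-KO males, 4.24 and 2.23 in WT females and 3.48 and 3.75 in NT-KO females. Both male NT-KO libraries were above the other 6, and the female groups overlapped. The log2 fold change in males was 1.80 ± 0.31 (SE) with an FDR of 0.160, and over its alternatives the FDR ran from 7.1e-05 with DESeq2 to 0.375. A stretch of 635 bp of its exons overlaps Slc7a2, the gene of a cationic amino acid transporter on the other strand. Slc7a2 stood at 255 and 189 CPM in WT males and at 383 and 413 CPM in NT-KO males, and its share in the reads of Gm26584 was not tested.

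Gm31121, the male-high RNA above, had 24 counts in WT males and 138 in NT-KO males, with a log2 fold change of 2.51 ± 0.52 (FDR 0.215, over alternatives 0.000385 to 0.542). It is a member through the 2 male NT-KO libraries alone, so that this difference was built into its selection. Gm44744 had 1.45 ± 0.35 in males (FDR 0.228, over alternatives 0.0274 to 0.579). Of those lower in NT-KO males, F730311O21Rik on chromosome 1 had the smallest p. It stood at 0.794 and 1.16 CPM in WT males, 0.285 and 0.0762 in NT-KO males, 1.23 and 0.970 in WT females and 0.738 and 0.505 in NT-KO females. All 4 NT-KO libraries were below all 4 WT libraries, and the log2 fold change was -2.43 ± 0.57 in males (FDR 0.215, over alternatives 0.00226 to 0.524) and -1.62 ± 0.38 over both sexes (FDR 0.637). Only 2 members, this one and Gm42031, had all NT-KO libraries below all WT libraries (1.16%, against 0.587% of all genes), and 0 had them above (0.366% of all genes). Both had passed the level rule through WT libraries alone, so that a lower level in NT-KO was favoured by their selection.

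4732465J04Rik, an RNA of up to 6 exons on chromosome 10, had a smaller difference with tight replicates. It stood at 25.4 and 27.7 CPM in WT males, 17.6 and 17.3 in NT-KO males, 20.2 and 22.0 in WT females and 23.2 and 24.4 in NT-KO females. Male NT-KO was below every other library, and in females NT-KO was above WT. The log2 fold change was -0.60 ± 0.14 in males (FDR 0.215), and the difference between the sexes was 0.77 ± 0.20 (FDR 0.573).

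**Figure D3:**
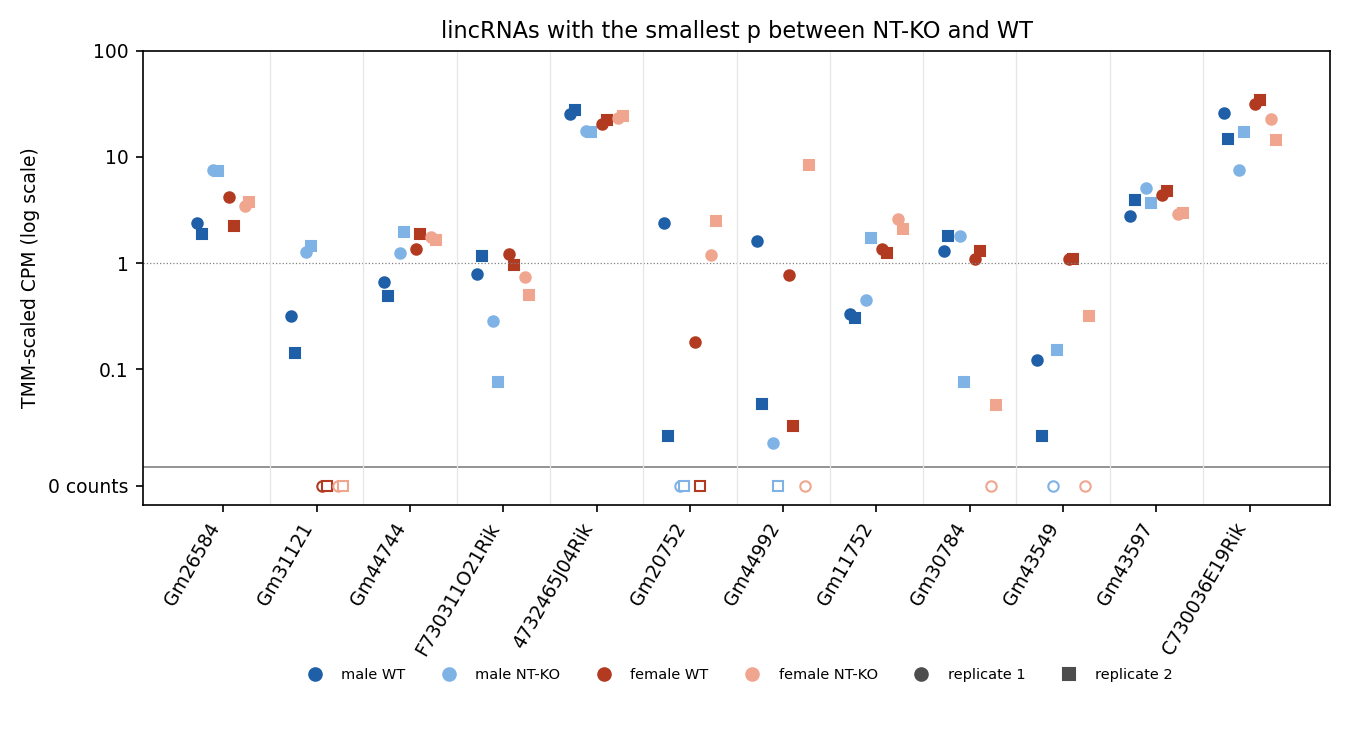
TMM-scaled CPM (log axis) of lincRNAs with the smallest unadjusted p for NT-KO against WT, 1 point for each of the 8 libraries by group. None passed the FDR threshold. Both male NT-KO libraries of Gm26584 sit near 7.5 CPM, above the other 6, and Gm20752 had no count in NT-KO males but up to 2.49 CPM in NT-KO females.

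Several of the smallest p values in this comparison came from lincRNAs that were on in some libraries and off in others. Gm20752, on chromosome 3, stood at 2.36 and 0.0236 CPM in WT males, 0 and 0 in NT-KO males, 0.183 and 0 in WT females and 1.19 and 2.49 in NT-KO females. Male WT replicate 1 held nearly all of the male counts, and both female NT-KO libraries were above both female WT libraries. In males the 135 counts of WT were at least 46.2-fold higher than the none of NT-KO, and in females NT-KO was higher by a ratio of 23.2 (95% counting interval 12.4 to 49.0). As the male WT replicates differed between 2.36 and 0.0236 CPM, the counting interval understates the spread between mice.

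Gm30784, at chr6:141866358-141875220, lies 10159 bp from Slco1a4, a bile salt and organic anion transporter gene that was itself higher in females (log2 fold change 1.05 ± 0.25, FDR 0.0418). Gm30784 stood at 1.31 and 1.82 CPM in WT males, 1.79 and 0.0762 in NT-KO males, 1.10 and 1.29 in WT females and 0 and 0.0459 in NT-KO females. It was near absent in 3 of the 4 NT-KO libraries and present in the fourth, male NT-KO replicate 1, and in all WT libraries. In females the counts were 148 in WT and 3 in NT-KO, a ratio of 49.2 (95% counting interval 16.5 to 241). The FDR was 1.00 in females, and 0.0376 to 1.00 over alternatives. Slco1a4 stood at 99.1 and 102 CPM in WT females and at 80.7 and 106 CPM in NT-KO females.

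Gm43549, a 2-exon RNA on chromosome 3, stood at 1.10 and 1.10 CPM in WT females and 0 and 0.321 in NT-KO females, a ratio of 6.41 (95% counting interval 4.03 to 10.7), and between 0 and 0.152 CPM in the males. The female WT libraries were the only ones in which it reached 1 CPM, so that this ratio was built into its selection. Gm43597, near N4bp2l2 on chromosome 5, stood at 4.35 and 4.73 CPM in WT females and 2.90 and 2.98 in NT-KO females. Its female groups did not overlap, and the log2 fold change was -0.63 ± 0.25 (FDR 1.00). The mean of Gm44992 in NT-KO females rested on 1 library, with 0 and 8.46 CPM in NT-KO females and 0.768 and 0.0294 in WT females. Over both sexes Gm11752 had 1.30 ± 0.39 (FDR 0.804) and C730036E19Rik -0.78 ± 0.29 (FDR 0.871).

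As a group the lincRNAs lay higher in NT-KO males than in WT males, although none passed. The median log2 fold change was 0.26 over the members, with 122 higher and 51 lower (70.5% higher), against 0.01 and 51.6% over all genes. Other classes moved too: antisense RNA genes had 0.24 (70.4% higher) and processed transcripts 0.22 (70.3%). Coding genes with a mean under 5 CPM had 0.13 (62.5%). Both NT-KO libraries were above both WT libraries in 57 members (32.9%, against 19.6%) and below them in 13 (7.51%, against 19.2%). In females the median was -0.07, with 62 higher (35.8%, against 50.3%), and the libraries did not overlap in 13 higher (7.51%, against 12.2%) and 39 lower members (22.5%, against 14.2%). The values of the clock genes, which drive the daily rhythm, are set beside this. Of 12 on the list 11 were tested and none was at 0 in any library. Their median log2 fold change for NT-KO against WT was 0.40 in males and -0.05 in females, with 0 called in both. The list mixes directions, with 7 of the 11 higher in NT-KO males and the others lower. Arntl stood at 4.16 and 4.11 CPM in WT males and 1.91 and 1.33 in NT-KO males. Dbp stood at 28.4 and 30.8 CPM in WT males and 64.8 and 50.3 in NT-KO males. Between the sexes the median of the clock genes was 0.43 in WT, with 7 higher in females and 5 called. The 12 ER chaperones had a median of -1.52 for NT-KO against WT in males, with 0 higher. In females it was -0.13, with 2 higher, and 0 were called in either sex. The part of the clock genes and of the ER chaperones in the shift of the lincRNAs was not tested. The comparison of NT-KO with WT in males and that of the sexes in WT share the male WT libraries. Without male NT-KO replicate 1 the median in males was 0.10. Over both sexes it was 0.10 in all libraries, with 111 members higher (64.2%, against 51% of all genes), and -0.01 without male NT-KO replicate 1.

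The position of each library is given by the median deviation of the members from their mean log2 CPM over all 8 libraries. It was -0.20 and -0.20 in WT males, 0.14 and -0.07 in NT-KO males, 0.18 and 0.10 in WT females and 0.03 and 0.04 in NT-KO females. Both male WT libraries were lowest, and female WT replicate 1 and male NT-KO replicate 1 were highest. In other low or noncoding genes, too, the male WT libraries were lowest. For 213 antisense RNA genes the values were -0.23 and -0.13, 0.20 and -0.08, 0.16 and 0.10, and 0.08 and -0.02. For 2787 coding genes with a mean under 5 CPM they were -0.16 and -0.13 in WT males and 0.15 and 0.09 in WT females, while 8664 coding genes at 5 CPM or more lay between -0.04 and 0.04 in every library. Among the lincRNAs with a mean of 5 CPM or more, 47 in number, the values ran from -0.19 in male WT replicate 2 to 0.19 in female WT replicate 1.

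**Figure D4:**
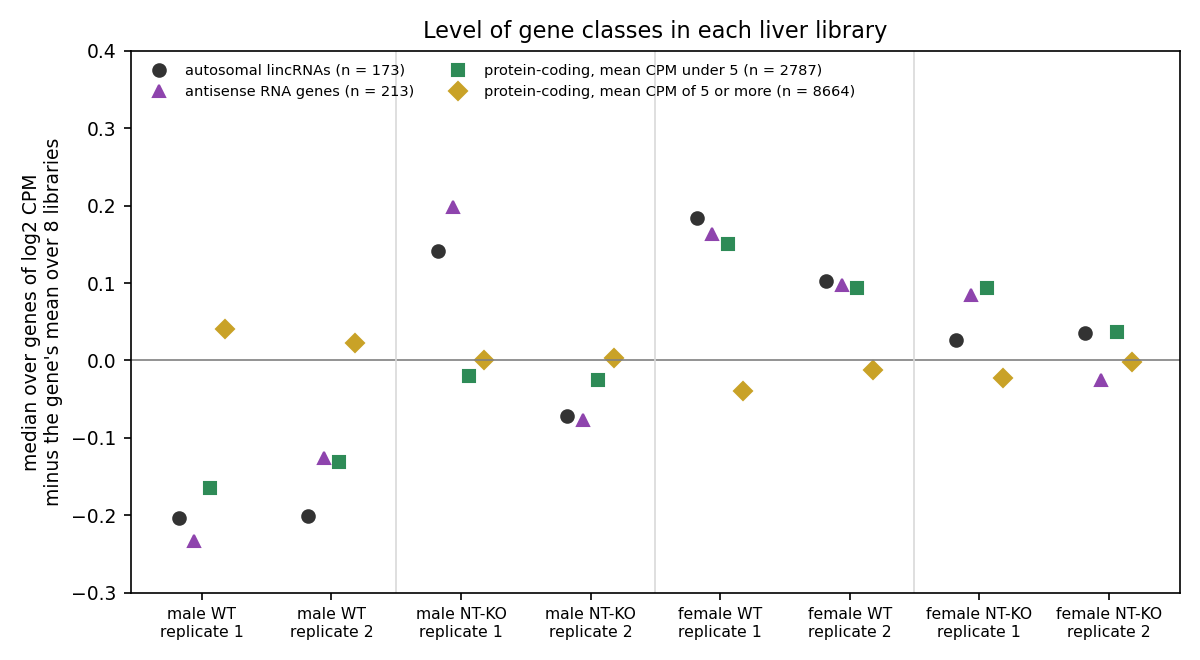
Median deviation of log2 CPM from the mean over the 8 libraries, for each library and gene class. The lincRNAs run from -0.20 in both male WT libraries to 0.18 in female WT replicate 1, with antisense RNAs close to them and coding genes of 5 CPM or more near 0.

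Leaving Malat1 and Neat1 aside, the members summed to 1016 and 986 CPM in WT males and 1259 and 1135 CPM in NT-KO males. In females the sums were 1329 and 1333 CPM in WT and 1229 and 1180 CPM in NT-KO. The male WT libraries were the lowest and the female WT libraries the highest, with NT-KO of both sexes in between. The 12 clock genes summed to 533 and 596 CPM in WT males, 747 and 661 in NT-KO males, 796 and 724 in WT females and 663 and 761 in NT-KO females. This sum was lowest in WT males as well, but Arntl, Clock and Cry1 of the list were highest there. Marker lists of other cells differed in their order. The 6 markers of sinusoidal endothelium summed to 147 and 103 CPM in WT males, 156 and 144 in NT-KO males and 164 to 183 CPM in females, and the Kupffer cell sums given above were lowest in male WT replicate 1. The B lymphocyte markers summed to 9.72 and 11.3 CPM in WT males, 41.0 and 68.6 in NT-KO males, 30.6 and 27.6 in WT females and 12.6 and 15.5 in NT-KO females. The erythroid markers were highest in WT males, at 947 and 445 CPM, against 170.5 to 372 CPM in the other libraries. Their part in the position of the lincRNAs was not tested.

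No lincRNA passed the test of whether the NT-KO effect differed between the sexes (0.0152% of all genes passed) with the quasi-likelihood test, against 1 with the likelihood ratio test (0.351% of all genes) and 0 with DESeq2 (0.473%). An unadjusted p under 0.05 was found for 18 members (10.4%, against 7.2% of all genes), 4 with a higher effect in females and 14 with a lower one. The smallest values with a fold that can be read, female minus male effect, were those of 4732465J04Rik and Gm30301 (1.19 ± 0.46) on one side and of Gm26584 (-1.64 ± 0.44), 1810058I24Rik and B230217O12Rik (-2.01 ± 0.59) on the other. Their FDR lay between 0.573 and 0.659. B230217O12Rik stood at 0.688 and 0.991 CPM in WT males, 3.09 and 1.68 in NT-KO males, 1.57 and 2.61 in WT females and 1.23 and 1.74 in NT-KO females, and 557 bp of its exons overlap other genes, among them Fam160b1. The median over the members was -0.39, with 50 higher and 123 lower, against -0.01 over all genes. It was -0.23 without male NT-KO replicate 1 and -0.29 without female WT replicate 1.

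Replicates of the lincRNAs were looser than those of all genes tested, but close to those of other low or noncoding genes. The biological coefficient of variation had a median of 0.237 over the members and 0.182 over all genes tested. It was 0.247 in antisense RNA genes, 0.233 in processed transcripts and 0.225 in coding genes with a mean under 5 CPM. Within a group, the members' log2 CPM correlated across genes with a Pearson r of 0.906 in WT males, 0.856 in NT-KO males, 0.943 in WT females and 0.860 in NT-KO females. The replicates were more than 2-fold apart for 17, 32, 19 and 20 members. The widest spread, named after the values were seen, was that of Gm42047, which stood at 5.43 and 0.637 CPM in WT males, 0.0610 and 10.6 in NT-KO males, 47.9 and 66.5 in WT females and 0.0351 and 17.6 in NT-KO females. It was near off in 1 library of each NT-KO group and on in the other, and high in both female WT libraries, so no group difference can be read from it.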

How the data were processed

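Liver poly(A) RNA was sequenced in 8 libraries, 2 for each of 4 groups of sex and genotype, taken from the sample titles. The authors trimmed reads with cutadapt, aligned them to GRCm38 with STAR 2.6.1a and counted them per gene with featureCounts. The deposited values are these raw counts, with no normalization. Strand setting and treatment of reads with several hits are not given in the sources used here. Totals ran from 45020377 to 64396291 counts. GENCODE M21 gave biotypes, names and positions for 49412 of 49671 IDs, and 259 did not match. Left out were 6 lincRNAs past the level rule on sex chromosomes or scaffolds.

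The 13117 genes that reached 1 CPM in 2 libraries or more (rRNA, miRNA and mitochondrial genes excepted) were scaled by TMM and fitted with 4 group means over all 8 libraries. The test was edgeR's quasi-likelihood test (edgeR 4.0.16, R 4.3.3), with a Benjamini-Hochberg FDR over all genes. A gene passed with an FDR up to 0.05 and a fold change beyond 1 on the log2 scale in either direction (FDR alone for the difference of NT-KO effects). It had been tested on simulated data. All tests are two-sided. Permuting 2 against 2 libraries cannot give a p below 0.333, so no single-value test was run. A standard error is the log2 fold change divided by the root of the F statistic. Against a group with no counts, 3 counts served as the floor for the group. Alternatives were the likelihood ratio test, DESeq2 1.42.0, RLE factors, unscaled library sizes, filterByExpr, fitting every gene with a count, a replicate block, robust dispersion, FDR alone, the 4 libraries compared, lincRNAs without exon overlap, and each library left out. Their effect on the median of all members was added after seeing the data.

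Named are the 12 lincRNAs highest in mean CPM and the 5 highest per kb, up to 8 called in each direction of a comparison or else the 3 with the smallest p, members of the role lists and nearest coding genes of called lincRNAs. Any other lincRNA is marked as picked after its values were seen. Members and lists were chosen with earlier results of these data known.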

Additional observations from a re-analysis of the deposited data

How the results depend on the processing

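Counts of lincRNAs that passed moved with the test, the filter and the scaling, and the causes were not tested. With edgeR's likelihood ratio test 5 lincRNAs passed for NT-KO against WT in males, 1 did so in females and 2 with the sexes joined, 25 between the sexes in WT, 9 in NT-KO and 17 over both genotypes, and 1 for the difference of NT-KO effects, against 0, 0, 0, 11, 3, 11 and 0. Over all 13117 genes this test called 205, 11, 38, 1039, 410, 678 and 46, against 2, 1, 2, 614, 234, 550 and 2. DESeq2 gave 3 in males, 20 between the sexes in WT and 6 in NT-KO, with 218, 987 and 401 over all genes. Without a filter beyond 1 count the numbers were 15, 6, 4, 38, 15, 23 and 9 in the order of the likelihood ratio test, with 667, 172, 205, 1736, 825, 1241 and 552 of the 29724 genes in the fit. With library sizes alone 20 passed between the sexes in WT (911 of all genes), and with only the 4 NT-KO libraries 5 passed between the sexes. With 1 library left out, the lone library of a group is assumed to vary like the others, and the counts ran from 1 to 13 between the sexes in WT, from 1 to 7 in NT-KO and from 6 to 16 over both genotypes, while the calls over all genes ran from 180 to 728, from 112 to 231 and from 365 to 570. They stayed at 0 for all NT-KO comparisons.

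Of the alternatives for named lincRNAs, 535 kept direction and side of the threshold, 90 lost the call, 11 gained it and 1 reversed, Gm44992 in females, whose log2 fold change ran from -7.40 without female NT-KO replicate 2 to 7.07 without female WT replicate 1. Gm6135, Gm44787, C330002G04Rik, Gm31121, Gm12718 and Gm30931 kept their calls over both genotypes in all 13 alternatives. The last 4 had entered the set through male libraries alone, so that a difference was built into their selection.

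The labels do not say whether equal replicate numbers pair the samples. Deviations of same-numbered libraries correlated between -0.18 and 0.21 over all genes and between -0.32 and 0.27 over the members. Such correlations cannot show how the mice were handled. With the number as a replicate block 8 lincRNAs passed between the sexes in WT, 4 in NT-KO and 12 over both genotypes (523, 205 and 537 of all genes), and 0 for NT-KO against WT. Depth limits the lowest members, for which 1 count is worth up to 0.0222 CPM and a few counts decide a fold.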

Other observations

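Some lincRNAs known from other tissues, picked after their values were seen, were present at low levels. Platr4, described in pluripotent cells, stood at 0.865 to 1.87 CPM in the 4 male libraries and at 0.512 to 0.810 CPM in the 4 female libraries, without passing the test between the sexes. Lncbate1, an RNA of brown fat, stood at 0.847 and 0.118 CPM in WT males, 1.87 and 1.18 in NT-KO males, 0.823 and 2.17 in WT females and 2.05 and 0.0153 in NT-KO females, and its replicates were far apart in 2 of the 4 groups.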
